A study of Mus musculus with 6 samples.

Results

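The genes described are 10 Kruppel-like factors of the mouse, Klf2, Klf3, Klf4, Klf6, Klf7, Klf9, Klf10, Klf11, Klf13 and Klf15, found by their symbols among the 53465 Ensembl genes of a table of raw read counts. All 10 were matched to a single gene, and all 10 passed the filter on low counts that left 13768 genes in the comparison. The RNA came from brain endothelial cells of the cortex, taken from male mice of 8 to 12 weeks that carried tie2-Cre, ai9 and rpl22HA/HA. Each group held 3 libraries, numbered 1, 2 and 4: mice of the control group were given phosphate buffered saline (PBS) by injection and those of the other group pentylenetetrazol (PTZ), a convulsant that blocks GABA-A receptors. All of these mice carried the same alleles. Tie2-Cre is active in endothelium and also in part of the blood lineage, ai9 is a red fluorescent reporter of Cre, and rpl22HA tags a ribosomal protein in cells with Cre, so that ribosomes and their messenger RNAs can be isolated. By its title the series measured a translatome, and the isolation of the cells or ribosomes, the PTZ dose and the interval before collection were not given in the sources used here.

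Kruppel-like factors are transcription factors with a conserved set of zinc fingers at the carboxyl end, by which they bind CACCC and GC boxes in promoters, while their amino-terminal parts differ and recruit activators or repressors. In endothelium, Klf2 and Klf4 are known to be induced by laminar blood flow through the kinases MEK5 and ERK5 and the MEF2 factors, and to promote an anticoagulant, anti-inflammatory state. Klf9 and Klf15 are known targets of corticosteroid receptors, Klf10 and Klf11 were first described as genes induced by TGF-beta, and Klf6 and Klf10 respond early to many stimuli.

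Promoter sequences are shown for Klf2 and Klf4, the pair of flow-responsive members, and for Klf9 and Klf15, the corticosteroid-linked members with the largest differences between the groups. They were taken from RefSeq on GRCm38.p6, for which 9 of the 10 genes had an entry, Klf10 being the one without. They run 5′ to 3′ on the strand of the gene and end before the start of the transcript. The Klf2 run is shorter, at 221 bases, because its GENCODE start lies before its RefSeq start. Capitals mark the letters of the SP-type box, which reads GGGCGG on either strand, those of the KLF-type box, in which the letters CACCC stand on either strand, and in Klf2 a match to the MEF2 consensus.
Klf2 chr8:72318812-72319032 (plus strand): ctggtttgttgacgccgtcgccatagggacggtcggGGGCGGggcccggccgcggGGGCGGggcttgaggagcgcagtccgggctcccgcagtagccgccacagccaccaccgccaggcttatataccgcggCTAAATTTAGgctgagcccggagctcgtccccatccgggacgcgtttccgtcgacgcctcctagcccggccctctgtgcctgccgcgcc
Klf4 chr4:55532476-55532725 (minus strand): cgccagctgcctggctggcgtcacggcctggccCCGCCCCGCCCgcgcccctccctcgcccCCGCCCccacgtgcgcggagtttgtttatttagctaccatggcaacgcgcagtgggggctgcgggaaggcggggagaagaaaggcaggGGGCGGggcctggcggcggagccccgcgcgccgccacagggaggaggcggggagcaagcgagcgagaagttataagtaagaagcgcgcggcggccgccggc
Klf9 chr19:23140976-23141225 (plus strand): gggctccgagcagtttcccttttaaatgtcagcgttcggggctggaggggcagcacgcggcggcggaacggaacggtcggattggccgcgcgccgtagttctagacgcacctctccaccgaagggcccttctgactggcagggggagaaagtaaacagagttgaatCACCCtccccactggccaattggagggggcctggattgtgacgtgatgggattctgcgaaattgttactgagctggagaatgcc
Klf15 chr6:90462326-90462575 (plus strand): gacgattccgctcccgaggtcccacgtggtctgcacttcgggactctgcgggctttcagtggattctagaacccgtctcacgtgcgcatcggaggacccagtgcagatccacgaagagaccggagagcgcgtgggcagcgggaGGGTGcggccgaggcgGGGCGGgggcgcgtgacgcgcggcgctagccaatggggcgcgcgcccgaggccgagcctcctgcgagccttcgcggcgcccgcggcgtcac
A match is a description of the letters and not a site shown to be bound. The SP-type box was found in 8 of the 9 promoters, Klf9 being the exception, against 32.7% of the 32851 promoter windows of all genes, each of 250 bases before the start. The KLF-type box was found in 6 of 9 against 52% of all windows. The letters G and C made up 59.2% to 78.4% of the 9 windows, where the median of all windows was 52.4%. The part of this in the matches was not tested. The Klf7 window lies inside its GENCODE gene. In Klf2 the KLF-type box, at bases -19 to -15, lies in the part not shown. The motifs can overlap each other, as in Klf13. The MEF2 consensus matched only in Klf2, at bases -118 to -109 from its RefSeq start, and it matched in 2.92% of all windows.

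Levels are CPM, the reads of a gene per unit of sequencing depth, corrected by trimmed mean of M values (TMM). The total per library was 11107481 to 15406967 reads, and a member drew 34 to 15384 reads in a library, the fewest for Klf15. The receptor gene Flt1, an endothelial marker, stood at 1859, 2492 and 1789 CPM in PBS libraries 1, 2 and 4 and at 3011, 3125 and 2554 CPM in PTZ libraries 1, 2 and 4, with no overlap and a log2 fold change of 0.50 (SE 0.29); Cdh5, another marker, is described with the KLF targets below. Of the 10 endothelial markers 6 had a positive and 4 a negative log2 fold change. They summed to 14491, 21101 and 16630 CPM in PBS libraries 1, 2 and 4. In PTZ libraries 1, 2 and 4 the sum was 14051, 25957 and 15500 CPM. Library 2 was the highest in both groups. No marker of any list was at 0 in all 6 libraries. Other cell types were also detected, with summed levels of 199 to 563 CPM in PBS and 339.6 to 1065 CPM in PTZ for pericytes and smooth muscle and of 2751 to 3345 CPM in PBS and 1894 to 2747 CPM in PTZ for microglia and macrophages. Red cell markers had the largest sum of the other marker lists, at 6561 to 10822 CPM in PBS and 5761 to 11646 CPM in PTZ. In such bulk RNA fewer cells of a type and less RNA per cell cannot be told apart. The labels do not state whether libraries of 1 group are separate animals, so every p reflects the spread among these 6 libraries alone, part of which may be technical.

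The question put to these libraries is how brain endothelial RNA differs between PTZ and PBS mice. Klf6 was the member with the most reads, and Klf9, Klf11, Klf15, Klf6 and Klf7 had every PTZ library above every PBS library. That is 5 of 10 members, where 7.3% of the 13768 genes tested had PTZ libraries all above PBS libraries. Members and lists were chosen with earlier results of these data known, so such shares, here and below, are a description and not a test. No member lay entirely below, where 7.04% of all genes did. No member passed the threshold of 0.05 on a p adjusted over all genes in edgeR's quasi-likelihood test, as was the case for all genes tested (0% called), and the smallest adjusted p of a member was 0.615, for Klf9. At an unadjusted p under 0.05 stood 2 members, Klf9 and Klf11, both higher in PTZ, where 7.21% of all genes were at that p, 3.83% higher and 3.38% lower. The log2 fold change was positive for 9 of 10 members, with a median of 0.46 beside 0.03 for all genes, of which 52.7% were positive. Under the authors' own scaling of the libraries 3 members, Klf6, Klf9 and Klf15, had PTZ libraries all above PBS libraries. The share of all genes under that scaling was not computed.

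**Figure D1:**
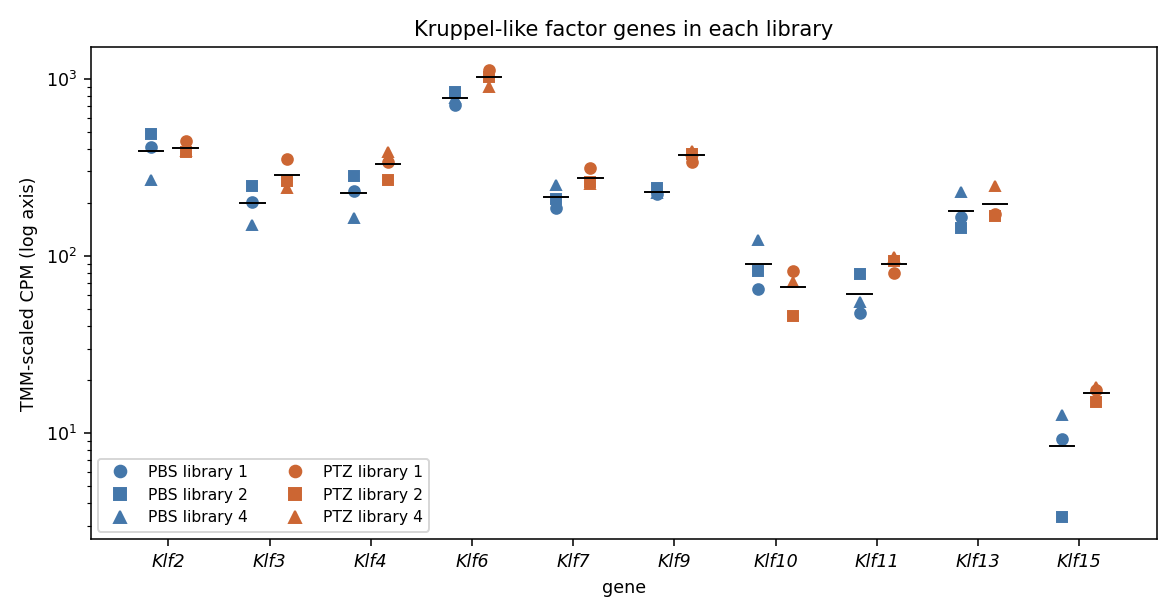
TMM-scaled CPM on a log axis for each of the 10 genes, with PBS libraries in blue, PTZ libraries in orange, a symbol for each library number and a black line at the group mean of 3 libraries. Klf9 libraries lie between 223 and 242 CPM in PBS and between 338 and 391 CPM in PTZ, while those of Klf2 overlap.

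Klf2 and Klf4 are the pair of members best known in endothelium, as factors that hold down adhesion molecules and clotting. Klf2 (ENSMUSG00000055148, chromosome 8, 72319033 to 72321656, plus strand, protein coding, coordinates of all members on GRCm38) stood at 413, 489 and 269.5 CPM in PBS libraries 1, 2 and 4 and at 447, 386 and 393 CPM in PTZ libraries 1, 2 and 4. The highest and the lowest library were both PBS libraries, so that the PTZ libraries lay within the range of the controls. Its means were 409 ± 33.8 CPM in PTZ against 391 ± 112 CPM in PBS (SD, n = 3), a log2 fold change of 0.06 (SE 0.26) with a 95% interval of -0.52 to 0.65 (edgeR, unadjusted p = 0.812). Its sign turned negative under the authors' scaling, without PBS library 4 and without PTZ library 1.

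Klf4 (ENSMUSG00000003032, chromosome 4, 55527143 to 55532466, minus strand) stood at 231, 281 and 164 CPM in PBS libraries 1, 2 and 4 and at 337, 269.9 and 385 CPM in PTZ libraries 1, 2 and 4. Libraries 1 and 4 of PTZ were the highest of the 6, and PTZ library 2 lay between PBS libraries 1 and 2. The log2 fold change was 0.55 (SE 0.26), with an interval of -0.03 to 1.13 and an unadjusted p of 0.0596 in edgeR (adjusted p = 0.700). Without PBS library 4 it was 0.34. Klf4 is also made by smooth muscle and myeloid cells. All 9 tested markers of pericytes and smooth muscle had a positive value, with log2 fold changes of 1.37 (SE 0.53) for the smooth muscle actin gene Acta2 and 2.07 (SE 0.67) for Cnn1. Their sum was 199, 291 and 563 CPM in PBS (in the order 1, 2, 4) and 1065, 339.6 and 1012 CPM in PTZ (in the same order). In PTZ it was lowest in library 2, as was Klf4, while in PBS it was highest in library 4, where Klf4 was lowest. The part of these cells in the Klf4 reads was not tested.

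The ratio of Klf4 to Klf2 reads within a library needs no scaling between libraries. It was 0.559, 0.575 and 0.610 in PBS libraries 1, 2 and 4 and 0.754, 0.700 and 0.981 in PTZ libraries 1, 2 and 4. The 3 PBS values lay close together and the PTZ values lay all above them, a log2 difference of 0.47 (exact 2-sided permutation p = 0.1 over 3 against 3 libraries, the smallest possible). Over all pairs of tested genes with a read in every library, 12.7% had ratios whose groups did not overlap, in either direction. This ratio and the 3 others between related members below were chosen after their values were seen.

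**Figure D2:**
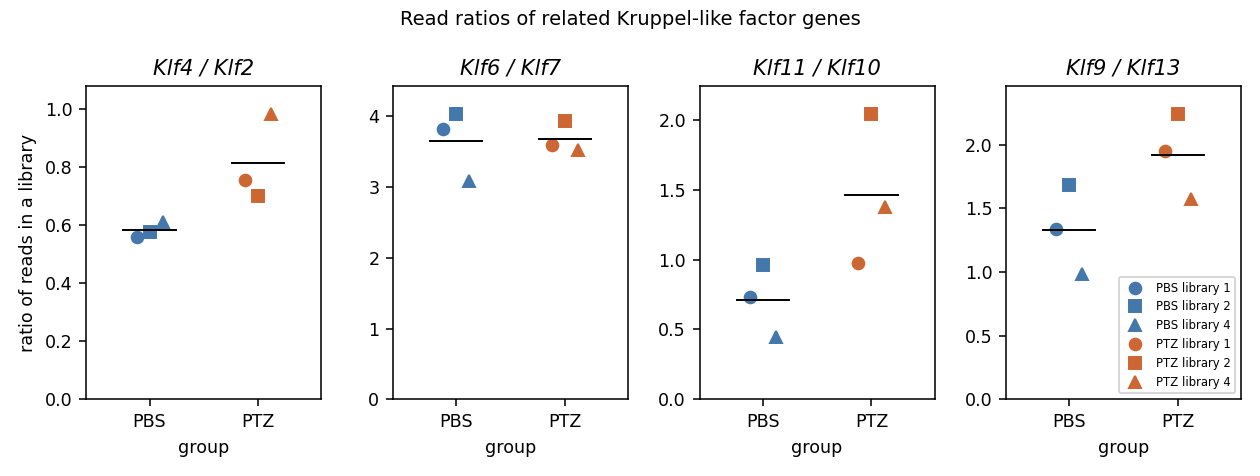
Ratio of the reads of related members within each library, from 0 upward, for Klf4 to Klf2, Klf6 to Klf7, Klf11 to Klf10 and Klf9 to Klf13, with 3 PBS libraries (blue) and 3 PTZ libraries (orange) and black lines at the means. The Klf4 to Klf2 ratio is at most 0.610 in PBS and at least 0.700 in PTZ.

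Klf9 and Klf15 are induced by corticosteroids in many tissues, Klf9 acting mostly as a repressor and Klf15 as a regulator of amino acid and glucose metabolism. Klf9 (ENSMUSG00000033863, chromosome 19, 23141226 to 23168134, plus strand) stood at 223, 242 and 227 CPM in PBS libraries 1, 2 and 4 and at 338, 379 and 391 CPM in PTZ libraries 1, 2 and 4. Its PBS libraries lay close to each other and its lowest PTZ library was well above them. The means were 369 ± 27.6 CPM in PTZ against 230.3 ± 10.2 CPM in PBS (SD, n = 3), 1.60-fold higher in PTZ, with a log2 fold change of 0.68 (SE 0.21), an interval of 0.22 to 1.14 and an unadjusted p of 0.00791 in edgeR. Within libraries of equal number the log2 ratios of PTZ to PBS were 0.60, 0.65 and 0.79. With the replicate number as a block, Klf9 passed over all genes in DESeq2 (log2 fold change 0.65, adjusted p = 0.0498), where 0.742% of the genes were called higher in PTZ, and did not pass in edgeR (adjusted p = 0.309).

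Klf15 (ENSMUSG00000030087, chromosome 6, 90462576 to 90475238, plus strand) had the lowest level of the 10 and the largest log2 fold change. It stood at 9.24, 3.36 and 12.7 CPM in PBS libraries 1, 2 and 4 and at 17.4, 14.9 and 18.2 CPM in PTZ libraries 1, 2 and 4. PTZ libraries were close together and PBS libraries differed widely, with PBS library 2, of 34 reads, far below the others. Its log2 fold change was 0.99 (SE 0.48), the interval -0.07 to 2.05 and the unadjusted p 0.0633 in edgeR. Without PBS library 2 the log2 fold change was 0.58 (SE 0.39, edgeR, unadjusted p = 0.172).

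Klf13 (ENSMUSG00000052040, chromosome 7, 63886351 to 63938915, minus strand) is a close relative of Klf9 and, like it, binds the corepressor SIN3A. It stood at 166, 144 and 231 CPM in PBS libraries 1, 2 and 4 and at 174, 169 and 249 CPM in PTZ libraries 1, 2 and 4. In both groups library 4 was the highest, and the groups overlapped over most of their range. Between the groups the log2 fold change was 0.13 (SE 0.26), with an interval of -0.44 to 0.69, and its sign turned negative without PBS library 2 or PTZ library 4. The ratio of Klf9 to Klf13 reads was 1.34, 1.68 and 0.981 in PBS libraries 1, 2 and 4 and 1.95, 2.24 and 1.57 in PTZ libraries 1, 2 and 4. It was higher in PTZ in all 3 pairs of equal number, with log2 ratios of 0.54, 0.41 and 0.68, while the PTZ value of library 4 lay below the PBS value of library 2 (unpaired log2 difference 0.55, exact 2-sided permutation p = 0.2).

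Corticosteroid receptors and direct targets were taken as a list of 6 genes. All 6 were tested, the median log2 fold change was 0.50 with 5 positive values, and an unadjusted p under 0.05 was reached by 1 gene, higher in PTZ. Of all genes 52.7% were positive and 3.83% were higher in PTZ at that p (edgeR). Zbtb16, a transcriptional repressor, stood at 201 ± 3.08 CPM in PTZ against 140.3 ± 25.0 CPM in PBS (SD, n = 3) with a log2 fold change of 0.52 (SE 0.21), and the clock gene Per1 at 182 ± 79.2 CPM in PTZ against 102 ± 52.3 CPM in PBS (SD, n = 3) with 0.84 (SE 0.38). Library 2 was the highest of both groups for Per1, and within libraries of equal number the log2 ratios of Per1 were 0.89, 0.75 and 0.97. The glucocorticoid receptor gene Nr3c1 stood at 231 ± 24.4 CPM in PTZ against 221 ± 18.4 CPM in PBS (SD, n = 3), while Tsc22d3, a target of that receptor, stood at 1061 ± 165 CPM in PTZ against 1147 ± 379.6 CPM in PBS (SD, n = 3). Tsc22d3 had the only negative log2 fold change of the list, -0.11 (SE 0.30). Fkbp5, another target, stood at 301 ± 58.9 CPM in PTZ against 217 ± 49.6 CPM in PBS (SD, n = 3), with no overlap. Its log2 fold change was 0.47 (SE 0.25). In 2 of the 6 genes every PTZ library was above every PBS library, where 7.3% of all genes were. Nr3c1, Tsc22d3 and Fkbp5 were picked after their values were seen.

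Klf10 and Klf11 are paralogs that repress transcription through SIN3A. Klf10 (ENSMUSG00000037465, chromosome 15, 38291463 to 38300706, minus strand) stood at 65.4, 82.2 and 124 CPM in PBS libraries 1, 2 and 4 and at 82.3, 45.8 and 71.1 CPM in PTZ libraries 1, 2 and 4. It was the only member of the 10 with a negative log2 fold change, -0.45 (SE 0.30), with an interval of -1.11 to 0.22 that includes 0 (edgeR, unadjusted p = 0.165). PBS library 4 was the highest and PTZ library 2 the lowest, and without PBS library 4 the value was -0.19. In the pair of libraries numbered 1 it was higher in PTZ, while in pairs 2 and 4 it was lower (log2 ratios 0.33, -0.85 and -0.80).

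Klf11 (ENSMUSG00000020653, chromosome 12, 24651274 to 24662789, plus strand) stood at 47.9, 78.8 and 55.0 CPM in PBS libraries 1, 2 and 4 and at 80.2, 93.3 and 98.0 CPM in PTZ libraries 1, 2 and 4. The lowest PTZ library and the highest PBS library were close, at 80.2 and 78.8 CPM, and the other PBS libraries were lower. PTZ stood above PBS by a log2 fold change of 0.58 (SE 0.24), with an interval of 0.05 to 1.11 and an unadjusted p of 0.0358 in edgeR (adjusted p = 0.690). The ratio of Klf11 to Klf10 reads was 0.732, 0.958 and 0.444 in PBS libraries 1, 2 and 4 and 0.974, 2.04 and 1.38 in PTZ libraries 1, 2 and 4. All PTZ ratios lay above all PBS ratios, PTZ library 1 by a small margin (log2 difference 1.05, exact 2-sided permutation p = 0.1, the smallest possible).

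TGF-beta ligands, receptors and SMADs formed a list of 13, all tested. Their median log2 fold change was 0.23, with 11 positive, where 52.7% of all genes were. An unadjusted p under 0.05 in edgeR, higher in PTZ, was reached by 3.83% of all genes and by 2 genes of the list. These were Skil, a SMAD corepressor, at 53.5 ± 16.8 CPM in PTZ against 24.3 ± 5.45 CPM in PBS (SD, n = 3) with a log2 fold change of 1.14 (SE 0.30), and the ligand gene Tgfb3 at 9.44 ± 6.33 CPM in PTZ against 1.82 ± 1.03 CPM in PBS (SD, n = 3) with 2.38 (SE 0.73). In PTZ, Skil and Tgfb3 were lowest in library 2, as were the summed markers of pericytes and smooth muscle, given above, and of fibroblasts, at 96.1, 92.8 and 151 CPM in PBS (in the order 1, 2, 4) and 269.8, 88.1 and 289 CPM in PTZ (in the same order). The part of these cells in Skil and Tgfb3 was not tested. The endothelial receptor genes Acvrl1 and Eng, picked after their values were seen, had log2 fold changes of 0.05 (SE 0.33) and 0.01 (SE 0.33). No gene of the list passed when adjusted over all genes (edgeR).

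Klf6 and Klf7 are paralogs with a similar amino-terminal domain, Klf6 being an early gene of vascular injury and Klf7 a factor of neuronal growth. Klf6 (ENSMUSG00000000078, chromosome 13, 5861482 to 5870394, plus strand) stood at 713, 839 and 779.9 CPM in PBS libraries 1, 2 and 4 and at 1126, 1027 and 902 CPM in PTZ libraries 1, 2 and 4. The groups did not overlap, with a gap between 839 and 902 CPM. Its log2 fold change was 0.39 (SE 0.25) with an interval of -0.16 to 0.94 (edgeR, unadjusted p = 0.144).

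Klf7 (ENSMUSG00000025959, chromosome 1, 64029447 to 64122282, minus strand) stood at 187, 209 and 252 CPM in PBS libraries 1, 2 and 4 and at 314, 261 and 256 CPM in PTZ libraries 1, 2 and 4. PBS library 4 and PTZ library 4 were nearly equal, at 252 and 256 CPM, so that the groups were barely apart. In Klf7 the log2 fold change was 0.36 (SE 0.22) with an interval of -0.13 to 0.85 (edgeR, unadjusted p = 0.132). Of the 8131 exon bases of Klf7, 3196 are shared with Gm26649, a long noncoding RNA gene on the opposite strand that had 0 reads in all 6 libraries. Whether reads from the shared bases were counted for Klf7 is not known. The ratio of Klf6 to Klf7 reads was 3.82, 4.03 and 3.09 in PBS libraries 1, 2 and 4 and 3.59, 3.94 and 3.52 in PTZ libraries 1, 2 and 4. It overlapped between the groups, with a log2 difference of 0.02 (exact 2-sided permutation p = 0.9).

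Klf3 is a repressor that recruits the corepressor CtBP. Klf3 (ENSMUSG00000029178, chromosome 5, 64803388 to 64832901, plus strand) stood at 201, 248 and 150.0 CPM in PBS libraries 1, 2 and 4 and at 351, 267 and 242 CPM in PTZ libraries 1, 2 and 4. PTZ library 1 stood apart at the top, PTZ library 4 lay just below PBS library 2, and PBS library 4 was the lowest. In edgeR its log2 fold change was 0.52 (SE 0.26) with an interval of -0.05 to 1.09 and an unadjusted p of 0.0675. Without PBS library 4 it was 0.32.

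**Figure D3:**
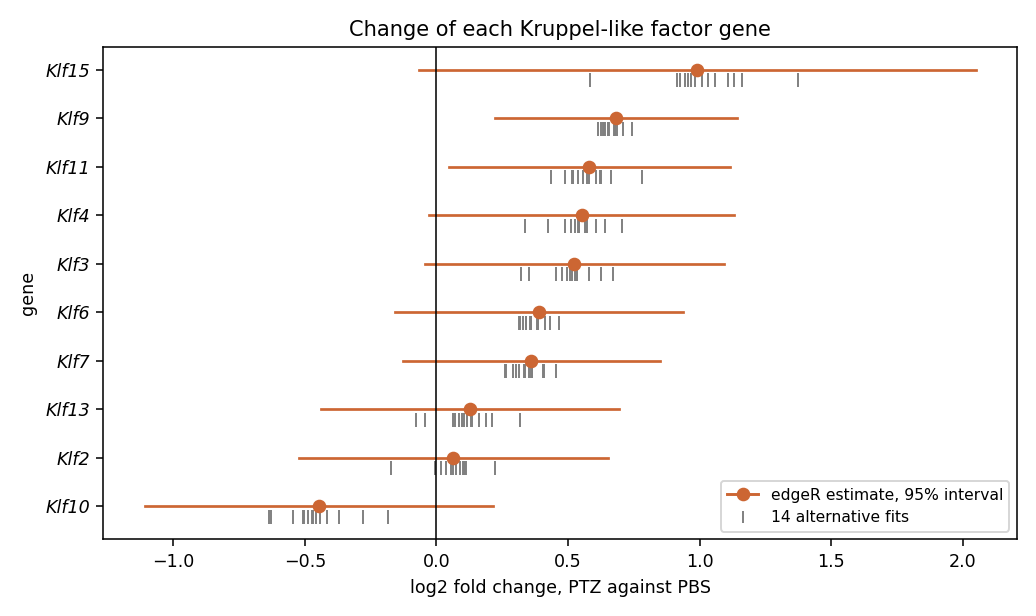
Log2 fold change of PTZ against PBS for each gene, with the edgeR estimate as a circle, its 95% interval as a line and 14 alternative fits as grey ticks. The intervals of Klf9 and Klf11 lie above 0, those of the other 8 genes include 0, and ticks of Klf2 and Klf13 fall on both sides.

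Libraries with the same number were also compared, since their deviations from the group means went together across genes. In pair 1 all 10 members were higher in PTZ, in pair 2 it was 7 of 10 and in pair 4 it was 9 of 10. The share of all genes higher in PTZ within a single pair was not computed, so these counts are not a result about the members. Of the members 7, Klf3, Klf6, Klf7, Klf9, Klf11, Klf13 and Klf15, were higher in PTZ in all 3 pairs, where 18.5% of all genes tested were, and 0 were lower in all 3, where 16.7% of all genes were. For Klf7 in pair 4 and Klf13 in pair 1 the log2 ratio was under 0.10. Klf2 and Klf4 were lower in PTZ in pair 2 only, with log2 ratios of 0.11, -0.34 and 0.54 and 0.55, -0.06 and 1.23 in pairs 1, 2 and 4. With the replicate number as a block, 5 members were higher at an unadjusted p under 0.05 in edgeR, Klf3, Klf4, Klf9, Klf11 and Klf15, where 10.9% of all genes were at that p in either direction.

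**Figure D4:**
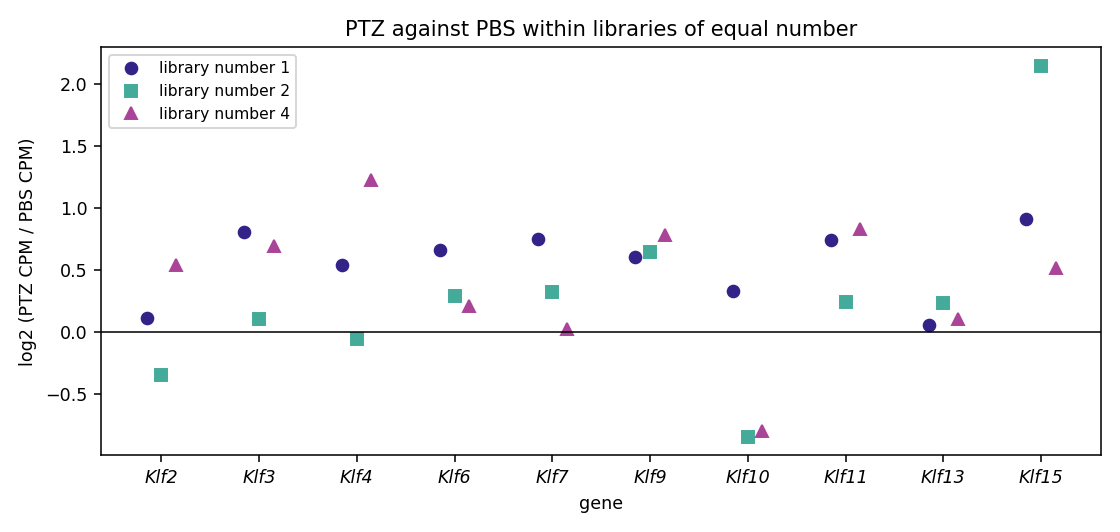
Log2 ratio of PTZ to PBS in CPM within libraries of equal number, with a symbol for each number. All points of pair 1 are above 0, Klf10 is below 0 in pairs 2 and 4, and Klf15 reaches 2.15 in pair 2.

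Members differed in which control library was high. PBS library 2 was the highest PBS library for Klf2, Klf3, Klf4, Klf6, Klf9 and Klf11, 6 of 10, and PBS library 4 for Klf7, Klf10, Klf13 and Klf15. Klf2, Klf3 and Klf4 shared the order 2, 1, 4 from high to low in PBS. In PTZ, Klf3, Klf6 and Klf7 shared the order 1, 2, 4, and Klf9 and Klf11 the reverse. PTZ libraries 1 and 4 were each the highest PTZ library for 5 members. Of their reads 9.34% and 4.49% lay in no annotated feature, where the other libraries had 2.99% to 5.19%; the part of this in these levels was not tested. The coefficient of variation was lower in PTZ than in PBS for 8 of 10 members, all but Klf6 and Klf9, where it was lower for 42.0% of all genes tested. For Klf2 it was 8.28% in PTZ and 28.6% in PBS.

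Levels of different members were compared per length, as CPM divided by the kilobases of exon in the GENCODE annotation. The union of all exons was used, which understates genes with long alternative exons such as Klf3. It also understates Klf7 if reads from the 3196 bases shared with Gm26649 were not counted. Whether Klf7 stays below Klf9 without those bases was not computed. Klf2 and Klf6 held the first 2 places in all 6 libraries, Klf4 the third and Klf9 the fourth, and Klf15 was the last in all 6. Klf2 stood at 212 ± 60.4 CPM per kb in PBS and 221 ± 18.3 CPM per kb in PTZ and Klf6 at 177 ± 14.4 CPM per kb in PBS and 232 ± 25.6 CPM per kb in PTZ, which did not differ beyond their spread in either group. Klf4 stood at 74.0 ± 19.2 CPM per kb in PBS and 108 ± 19.0 CPM per kb in PTZ and Klf9 at 47.8 ± 2.11 CPM per kb in PBS and 76.7 ± 5.73 CPM per kb in PTZ, each apart from its neighbours in both groups, with no overlap of libraries. From the fifth to the ninth place Klf7, Klf13, Klf3, Klf10 and Klf11 overlapped with their neighbours, between 13.96 and 26.5 CPM per kb on average in PBS and between 15.9 and 34.1 CPM per kb in PTZ. Klf15 stood at 3.02 ± 1.69 CPM per kb in PBS and 6.03 ± 0.613 CPM per kb in PTZ, below Klf11 by 4.62-fold in PBS and below Klf10 by 2.64-fold in PTZ.

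**Figure D5:**
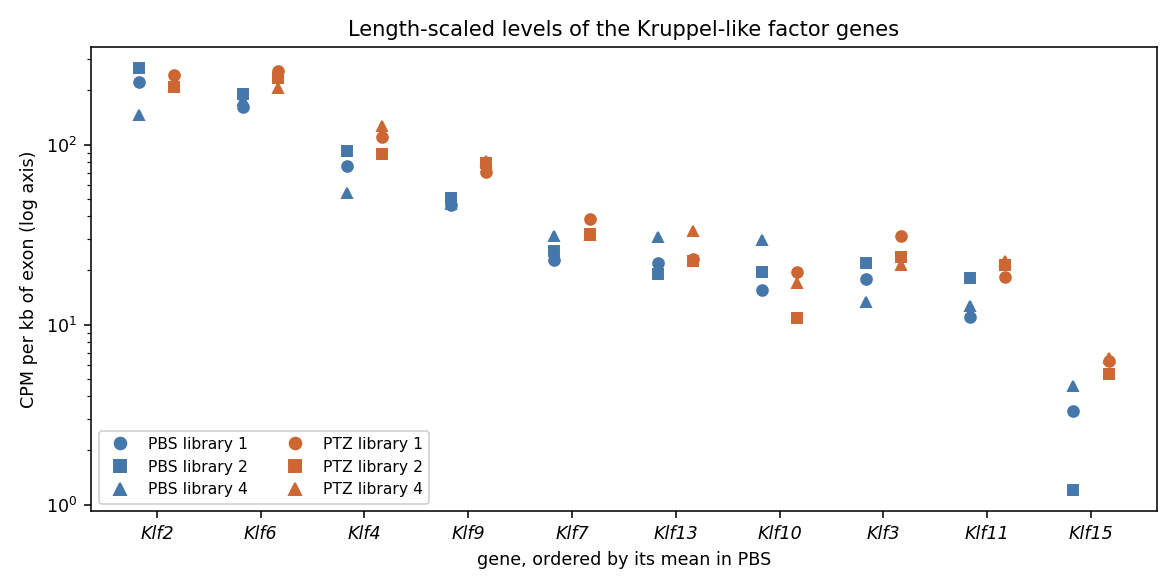
CPM per kilobase of exon on a log axis, genes ordered by their mean in PBS, with PBS libraries in blue and PTZ libraries in orange. Klf2 and Klf6 lead at means of 212 and 177 CPM per kb in PBS, and Klf15 is lowest at 3.02 CPM per kb.

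Of 16 other KLF and SP genes 9 were tested and 7 had too few reads: Klf1, Klf14, Klf17, Sp6, Sp7, Sp8 and Sp9. The 9 had a median log2 fold change of 0.17, with 7 positive, and none had an unadjusted p under 0.05. Klf5 stood at 8.24, 2.96 and 10.1 CPM in PBS libraries 1, 2 and 4 and at 14.8, 10.8 and 10.6 CPM in PTZ libraries 1, 2 and 4, with no overlap and a log2 fold change of 0.76 (SE 0.51). Klf16, which is close to Klf9 and Klf13, stood at 14.6 ± 2.58 CPM in PTZ against 10.5 ± 3.55 CPM in PBS (SD, n = 3) with 0.47 (SE 0.39).

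The pathway known to set endothelial Klf2 and Klf4 was taken as 13 genes of the MEK5, ERK5 and MEF2 cascade, the CCM complex that restrains it and sensors of flow. All 13 were tested, with a median log2 fold change of 0.11 and 8 positive values, and none had an unadjusted p under 0.05. Mef2a, a MEF2 factor, stood at 80.0 ± 20.6 CPM in PTZ against 57.7 ± 3.90 CPM in PBS (SD, n = 3) with a log2 fold change of 0.47 (SE 0.24), and the kinase gene Map3k3 at 188 ± 21.7 CPM in PTZ against 143 ± 30.8 CPM in PBS (SD, n = 3) with 0.39 (SE 0.22). In both genes the groups overlapped, although PTZ was higher in all 3 pairs of equal number, with log2 ratios of 0.77, 0.13 and 0.41 for Mef2a and 0.55, 0.25 and 0.42 for Map3k3.

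Genes that KLF2 or KLF4 are known to raise were measured as a list of 7. The median log2 fold change was 0.15, with 6 positive, and no gene had an unadjusted p under 0.05. Cdh5, which encodes VE-cadherin, stood at 115, 145 and 144 CPM in PBS libraries 1, 2 and 4 and at 152, 182 and 228 CPM in PTZ libraries 1, 2 and 4, a log2 fold change of 0.48 (SE 0.23) with no overlap. Ptgds, a prostaglandin D synthase, stood at 972, 578 and 695 CPM in PBS libraries 1, 2 and 4 and at 561, 911 and 3245 CPM in PTZ libraries 1, 2 and 4, and PTZ library 4 alone set its higher mean. Nos3 and Thbd, known targets often used as a readout of KLF2, were named after their values were seen. They had log2 fold changes of 0.07 (SE 0.28) and 0.06 (SE 0.26), where the median of all genes was 0.03. Whether they followed Klf2 was not tested.

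Genes that KLF2 or KLF4 are known to hold down were a list of 9, of which 7 were tested and Sele and F3 had too few reads. Of the 7 tested 6 were positive, where 52.7% of all genes were, with a median log2 fold change of 0.49. An unadjusted p under 0.05 in edgeR, higher in PTZ, was reached by 3.83% of all genes and by 2 genes of the list. These were the chemokine gene Ccl2, at 0.874, 0.592 and 1.28 CPM in PBS libraries 1, 2 and 4 and at 23.0, 6.45 and 16.8 CPM in PTZ libraries 1, 2 and 4, and Thbs1, an antiangiogenic matrix protein, at 5.43, 17.0 and 7.41 CPM in PBS libraries 1, 2 and 4 and at 30.8, 9.83 and 55.0 CPM in PTZ libraries 1, 2 and 4. Neither passed when adjusted over all genes (edgeR, adjusted p = 0.283 and 0.648). Fibroblast markers, whose cells also express Ccl2 and Thbs1, were positive in 7 of 7 tested, among them Col1a1 with 2.36 (SE 0.65) and Col1a2 with 1.69 (SE 0.40). Their sum and Ccl2 and Thbs1 were all lowest in library 2 within PTZ, and the part of fibroblasts in these genes was not tested. The adhesion molecule gene Vcam1, named after its values were seen, stood at 369.8, 1881 and 324 CPM in PBS libraries 1, 2 and 4 and at 532, 808 and 319 CPM in PTZ libraries 1, 2 and 4, with PBS library 2 far above the others.

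Cofactors and ubiquitin ligases of KLF proteins were a list of 9, all tested, with 8 positive and a median log2 fold change of 0.40. Of all genes 52.7% were positive. An unadjusted p under 0.05 in edgeR, higher in PTZ, was reached by 1 gene of the list and by 3.83% of all genes. In 5 of the 9 every PTZ library was above every PBS library, where 7.3% of all genes were. Ctbp2, a CtBP corepressor that KLF3 binds, stood at 115, 136 and 126 CPM in PBS libraries 1, 2 and 4 and at 158, 179 and 176 CPM in PTZ libraries 1, 2 and 4, a log2 fold change of 0.44 (SE 0.19). Wwp1, a ubiquitin ligase that binds KLF2, stood at 30.5, 31.7 and 27.6 CPM in PBS libraries 1, 2 and 4 and at 53.0, 38.0 and 36.6 CPM in PTZ libraries 1, 2 and 4, a log2 fold change of 0.51 (SE 0.25). No gene of the list passed when adjusted over all genes (edgeR).

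Microglia and macrophages, which also express Klf2, Klf4 and Klf6, had 9 of 10 markers with a negative log2 fold change, among them Tmem119 with -0.88 (SE 0.31) and Aif1 with -0.65 (SE 0.21). Neutrophils and monocytes had 5 of 8 negative, among them Camp with -2.73 (SE 0.84) and Ngp with -1.85 (SE 0.71). Camp stood at 64.6, 10.96 and 7.71 CPM in PBS (in the order 1, 2, 4) and 3.29, 7.84 and 1.56 CPM in PTZ. Ngp stood at 97.99, 14.1 and 14.6 CPM in PBS and 13.5, 6.25 and 15.2 CPM in PTZ (in the same order). In both genes the groups overlapped, and PBS library 1 was far above the others. The neutrophil and monocyte markers summed to 267 to 592 CPM in PBS and 122 to 461 CPM in PTZ. T and B lymphocyte markers summed to 42.6 to 59.4 CPM in PBS and 34.7 to 61.8 CPM in PTZ, and Cd79a had -0.15 (SE 0.29). The genes named by the same rule for red cells (Hbb-bt, Alas2), platelets (Itga2b, Ppbp), astrocytes (Slc1a3, Aldoc), oligodendrocytes (Mbp, Cnp) and neurons (Rbfox3) had no unadjusted p under 0.05. The part of blood and immune cells in the levels of the members was not tested.

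The genes whose log2(CPM + 1) went most closely with 3 of the members over the 6 libraries were named among 9725 others, as a description. For Klf2 they were Rbm12 (Pearson r = 0.984), Smad4 (0.983) and Cep83 (0.979). Smad4, which encodes the SMAD shared by TGF-beta and BMP signals, stood at 100.5, 114 and 80.9 CPM in PBS and 103, 98.5 and 96.4 CPM in PTZ. For Klf4 they were Dclre1b (0.990), Setd7 (0.984) and Cul7 (0.982). For Klf9 they were H2-Q6 (0.988), whose reads can be shared with near-identical copies, Marc2 (0.986) and Marcksl1 (0.984). These values share their libraries and depth, and an r over 0.95 was reached by 18 genes for Klf2, 33 for Klf4 and 31 for Klf9.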

How the data were processed

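The authors deposited raw read counts per Ensembl gene for 6 libraries, and per library a scaled signal that equals those counts divided by 1 factor, for 100% of values within 0.01 reads. Per the submitters' processing notes the build was GRCm38, and the tools named, without roles, were HTSeq, edgeR, CASAVA and TopHat2 2.1.1. Annotation release and strand setting were not given in the sources used here. Whether a read shared with an antisense gene was counted for 1 of the genes or for none is thus not known. Summary rows that name no gene (16.1% to 22.9% of reads) stayed out.

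The counts were analysed with edgeR 4.0.16, DESeq2 1.42.0 and limma 3.58.1 under R 4.3.3: filterByExpr (minimum count 10, total 15), TMM, edgeR's quasi-likelihood test on group, 2-sided, Benjamini-Hochberg over 13768 genes, threshold 0.05. SE values come from the fold change and its F statistic. Intervals of fold changes use the test's degrees of freedom. The common dispersion was 0.221. The fits were tested on simulated data. Total counts of 11107481 to 15406967 per library set the counting precision. No 2 libraries of a group agreed within sampling noise (chi-square per degree of freedom 48.2 to 112).

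Titles number the libraries 1, 2 and 4. Across genes, deviations from the group mean correlated at 0.167, 0.197 and 0.217 between same-numbered libraries, over 0.1 in each pair, so the numbers were taken to pair them. The main design has no block.

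The members and lists were chosen with earlier results of these data known. All members are named, and of each list, marker lists included, up to 2 genes, those with the smallest unadjusted p and a mean of at least 5 CPM. Like patterns were ranked on log2(CPM + 1). Symbols and coordinates come from GENCODE M21. Alternatives were other scalings, no filter, DESeq2, limma-voom, the block and leaving out each library.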

Additional observations from a re-analysis of the deposited data

How the results depend on the processing

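Of 140 log2 fold changes of members under 14 alternatives 135 kept their direction. The 5 others were of Klf2, at -0.17 without PBS library 4, -0.0042 under the authors' scaling (chosen after seeing the data) and -0.0041 without PTZ library 1, and of Klf13, at -0.04 without PBS library 2 and -0.080 without PTZ library 4; the cause was not tested. With a library left out Klf2 ranged from -0.17 to 0.22 and Klf13 from -0.080 to 0.32. Over all 14 alternatives Klf9 ranged from 0.61 (authors' scaling) to 0.74 (without PTZ library 1).

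Members with all PTZ libraries above all PBS libraries numbered 5, 4 with DESeq2's size factors in edgeR and 3 under the authors' scaling, and 4 to 6 with a library left out. Members entirely below numbered 0 to 1 with a library left out. Groups of fewer libraries separate more easily, so the counts with a library left out do not test the count of 5. The share of all genes was not computed for these alternatives. Over all genes the main test called 0 higher and 0 lower (993 genes had an unadjusted p under 0.05). Without a low-count filter it called 77 and 44, DESeq2 57 and 42, and limma-voom 1 and 0, and with a library left out it called 0 to 8 higher and 0 lower. With the replicate block edgeR called 0 and 0, and DESeq2 called 113 and 81, among them 1 member, Klf9. The block changed no other member's call. Klf15, with 34 reads in PBS library 2, is the member whose value depth limits most.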
